A study of Mus musculus with 3 samples.

Results

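Ribosomal protein genes of the cytosolic ribosome were examined in hearts of wild-type C57BL/6J mice taken at day 9 after birth. Members were every gene of the deposited table whose symbol starts with Rpl or Rps and a number, or is Rplp with a number or Rpsa, without the S6 kinases. The rule gave 87 of 18038 genes. They comprised 77 canonical genes, 46 of the large and 31 of the small subunit, with 7 paralogs, 2 lines named as pseudogenes and Rps19bp1, whose protein binds RPS19 and is not part of the ribosome. The 3 hearts formed 1 group, with no other genotype, treatment or age, so levels were compared between genes and between hearts only. RNA was extracted from whole heart tissue, so a level is a mean over all its cell types, and fewer cells of a type and less RNA per cell cannot be told apart. Whether the hearts came from separate animals of separate litters is not in the labels, and a p-value here covers no more than the variation among these 3 samples, part of which may be technical.

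A ribosome joins a small subunit, which reads the messenger RNA, to a large subunit, which forms peptide bonds. Most of its proteins are present in a single copy per ribosome, so the cell makes them in roughly equal amounts, and the acidic stalk proteins are an exception, with several copies of RPLP1 and RPLP2 anchored by RPLP0. Their messenger RNAs typically start with a C followed by a run of pyrimidines (C or T in the DNA), the 5′ terminal oligopyrimidine tract, through which mTORC1 and LARP1 adjust translation. Some ribosomal protein genes have paralogs that are used in particular tissues, such as Rpl3l in striated muscle and Rpl39l in testis.

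As examples of such a start, RefSeq sequence of GRCm38.p6 is given around the transcription start of 4 canonical genes. Each line has 35 bases before the start and 25 from the start on, so that base 36 is the first transcribed base, and capitals mark the longest run of C or T within 25 bases either side of the start. Rpl28 lies at chr7:4792930-4792989 on the plus strand, Rpl35 at chr2:39005107-39005166, Rps6 at chr4:86857343-86857402 and Rps27 at chr3:90213624-90213683, the latter 3 on the minus strand.
Rpl28: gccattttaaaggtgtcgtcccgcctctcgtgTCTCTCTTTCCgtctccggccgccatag
Rpl35: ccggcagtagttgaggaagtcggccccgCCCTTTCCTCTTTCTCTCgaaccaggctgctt
Rps6: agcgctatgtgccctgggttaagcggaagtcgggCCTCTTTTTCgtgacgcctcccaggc
Rps27: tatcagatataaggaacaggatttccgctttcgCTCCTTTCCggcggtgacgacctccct
The run was 11 bases long in Rpl28, 18 in Rpl35, 10 in Rps6 and 9 in Rps27, and in each it spans the start.

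The windows of 3 paralogs and of 1 parent, which is itself canonical, are given beside these. Rps27l lies at chr9:66946051-66946110, Rpl22l1 at chr3:28805473-28805532 and Rpl3l at chr17:24727791-24727850, all on the plus strand, and for Rps27l and Rpl3l the first of their RefSeq starts is shown. Rpl36a, the parent of Rpl36al, lies at chrX:134585619-134585678 on the plus strand.
Rps27l: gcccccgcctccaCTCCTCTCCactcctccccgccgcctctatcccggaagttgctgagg
Rpl22l1: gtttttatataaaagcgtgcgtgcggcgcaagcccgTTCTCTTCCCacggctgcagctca
Rpl3l: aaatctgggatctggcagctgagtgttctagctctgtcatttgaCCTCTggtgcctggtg
Rpl36a: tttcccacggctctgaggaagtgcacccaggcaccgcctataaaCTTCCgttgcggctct
Rpl22l1 has a run of 10 bases directly after its first transcribed base. In Rps27l the marked run of 9 lies before the start, as does another of equal length just downstream, which is not marked. Rpl3l and Rpl36a have no run over 5 bases there. Short runs were also found in other canonical genes, such as Rpl41 and Rpl24 with a longest run of 3 bases, so they do not set paralogs apart.

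Over the whole family, RefSeq promoters were matched for 66 of 87 members, 57 of them canonical, and for 14128 genes of the table. The windows hold 250 bases before and 50 after the start, and a gene with several starts was given its longest run or any match. The median longest pyrimidine run within 25 bases of the start was 9 bases in canonical genes and 5 over all genes matched. A run of at least 8 bases was found in 30 canonical genes (52.6%), against 22.7% of all genes. The letters CTCTTTC, searched on the transcribed-sense strand only, were in 22.8% of canonical windows and in 4.63% of all windows, and CTTTCC, searched likewise, in 40.4% and 16.7%. These 2 motifs can overlap each other. CCGGAAG, the core recognised by ETS factors, was in 42.1% of canonical and 15.6% of all windows on either strand. AAGATGG, a YY1 core, was likewise in 15.8% (only 9 of 57) and 7.43%. CACGTG, the E-box bound by MYC, stood at 10.5% against 10.3%, TATAAA at 10.5% against 10.9% and GGGCGG at 61.4% against 59.1%, all on both strands. The canonical genes thus had the higher share for the pyrimidine, ETS and YY1 letters, and a share near that of all genes for the E-box, TATA and GC-box letters. These are shares of matching letters over the whole windows, given as a description. The letters were chosen after values or sequences had been seen.

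The library totals were 17766501 to 18768094 counts. All 6 cardiomyocyte markers were detected, which here means a level of at least 1 CPM (the count scaled to a library total of 1000000) in each heart. Heart 1 differed from the others in several genes outside the family. Scgb1a1, a secretory protein of airway epithelium, had 4096, 1 and 13 counts in hearts 1 to 3. The 5 lung and airway markers summed to 1205 TPM in heart 1 and to 0.5001 and 3.73 TPM in hearts 2 and 3. TPM is the deposited FPKM rescaled to 1000000 per heart, so it is a level per gene length. Sftpb, Sftpc and Sftpa1, surfactant genes of the alveoli, had 12, 4 and 12 counts in heart 1. The 3 smooth muscle and pericyte markers summed to 355, 546 and 534 TPM, lowest in heart 1. Most of this was Rgs5, at 267, 444 and 433 TPM. The 4 endothelial markers were also lowest in heart 1, at 567, 678 and 643 TPM, and the 4 macrophage markers highest, at 225, 180 and 184 TPM. None of the markers of these 3 lists passed the test of variation described below, which 1.84% of all genes passed. The part of these cells in the levels below was not tested, and several results are also given without heart 1.

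Of the 87 members, 84 were detected, among them all 77 canonical genes. Members held 2.29%, 2.14% and 2.29% of all counts in hearts 1 to 3. Per length the family took a larger share, 6.95%, 6.57% and 6.75% of TPM, a mean of 6.76% ± 0.189 (SD, n = 3). Without heart 1 that mean was 6.66%. The median canonical gene stood at 858 TPM ± 51.6 (mean and SD of the medians of 3 hearts). Without heart 1 it was 833 TPM. By mean TPM over the hearts, the median was 862 for canonical genes, 9.41 over all genes and 19.1 over detected genes. Of the 77 canonical genes, 12 were among the 100 highest genes of the heart by TPM and 73 among the 500 highest.

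Large and small subunit genes had similar medians. The median was 853 TPM ± 42.1 for the large subunit and 883 TPM ± 69.4 for the small subunit (SD, n = 3). The log2 ratio of large to small was -0.05 ± 0.06 (SD, n = 3), a difference within the spread between hearts. With CPM, which is not divided by length, the ratio was 0.14 ± 0.08 and had the opposite sign. An exact sign-flip test over 3 hearts cannot give a p below 0.25, so none was run.

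**Figure D1:**
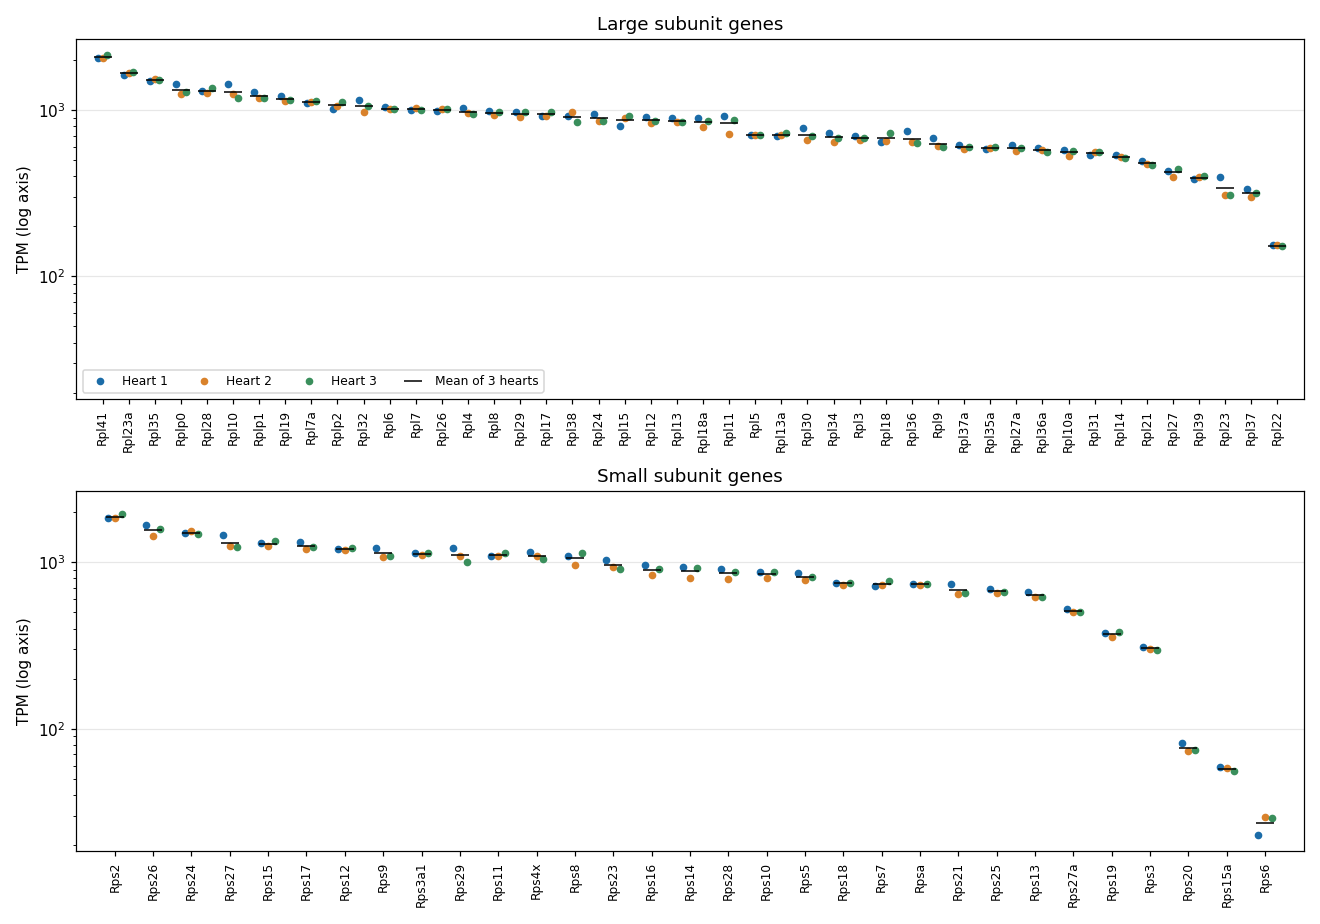
TPM (log axis) of each of the 77 canonical genes in hearts 1 to 3 (coloured points) with the mean of the 3 hearts (black bar), for the large subunit (top) and the small subunit (bottom), ordered by mean. The means of 73 genes lie between 304 and 2082 TPM, and those of Rpl22, Rps20, Rps15a and Rps6 lie below 200.

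Among canonical genes, the middle 50% by mean TPM lay between 629 and 1105 TPM, a range of 1.76-fold. The extremes lay much further apart, and the highest mean was 76.3 times the lowest. The SD of log2 mean TPM over the 77 genes was 1.02. Most neighbours in the order could not be separated: of 76 adjacent pairs, 64 had overlapping ranges over the 3 hearts.

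Rpl41, which encodes the smallest protein of the ribosome, was the highest, at 2067, 2046 and 2134 TPM in hearts 1 to 3. Rps2, a protein of the messenger RNA entry side of the small subunit, followed at 1835, 1843 and 1941 TPM, below Rpl41 in every heart. Rpl23a, at the exit of the peptide tunnel, had 1633, 1668 and 1702 TPM. These 3 genes did not overlap one another. Rps26, at the messenger RNA exit side, had 1671, 1434 and 1593 TPM, and Rpl35, also at the tunnel exit, had 1490, 1538 and 1506 TPM, so these 2 ranges overlapped, and that of Rps26 reached into that of Rpl23a. By CPM the order was another one: Rps2 was first of 77, Rpl41 was 18th and Rplp0 was second.

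Of the stalk genes, Rplp0 had 1424, 1254 and 1282 TPM. Rplp1 had 1277, 1182 and 1186 TPM, and Rplp2 had 1014, 1058 and 1122 TPM. All 3 lay in the upper part of the family, in the order Rplp0, Rplp1, Rplp2 in each heart. The log2 difference from Rplp0 was -0.12 ± 0.04 for Rplp1 and -0.31 ± 0.16 for Rplp2 (SD, n = 3). By CPM, with no division by length, the differences were -1.86 and -2.15, so that the 3 genes were close only per length. Rpsa, the laminin receptor homologue that sits on the small subunit, had 740, 731 and 741 TPM, with an SD of 5.27.

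At the low end stood Rps6, the small subunit protein phosphorylated by S6 kinases, with 23.0, 29.6 and 29.2 TPM. Rps15a had 59.2, 58.4 and 55.3 TPM, and Rps20 had 81.6, 73.8 and 74.7 TPM. Rpl22, an RNA-binding protein of the large subunit, had 154, 153 and 152 TPM. Rps3, at the messenger RNA entry, had 311, 302 and 299 TPM. None of these 5 ranges overlapped another, and Rps6 was lowest in every heart.

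For Rps15a, Rps20, Rpl22 and Rps3 the low TPM went together with a long length in the authors' calculation. The length implied by count and FPKM was 5055 bases for Rps15a, whose coding sequence has 390 bases, a ratio of 13.0. It was 3363 bases for Rps20 and 2117 for Rpl22, ratios of 9.42 and 5.51, where the median canonical gene had 1.15. Rps3 had an implied length of 1793 bases for a coding sequence of 729. GENCODE M21, an annotation of the same assembly, lists Rps15a transcripts of 5179 and 5130 bases beside shorter coding ones of 640, 637, 629 and 250 bases. By counts alone these genes were less extreme. Rps15a had 2717, 2752 and 2717 counts and was 64th of 77 by CPM. Rps20 was 67th, Rpl22 60th and Rps3 34th. Per kilobase of coding sequence, Rps15a stood at 381 CPM, Rps20 at 368, Rpl22 at 430 and Rps3 at 381. The median canonical gene had 552. The share of reads from long and short transcripts of these genes was not tested.

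Across the 77 canonical genes, log2 TPM and log2 implied length had a Pearson r of -0.58 and a Spearman rho of -0.35. For CPM the values were 0.26 and 0.46. These correlations are across genes of the same 3 libraries, and TPM contains the length as its divisor, so they are given as a description.

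**Figure D2:**
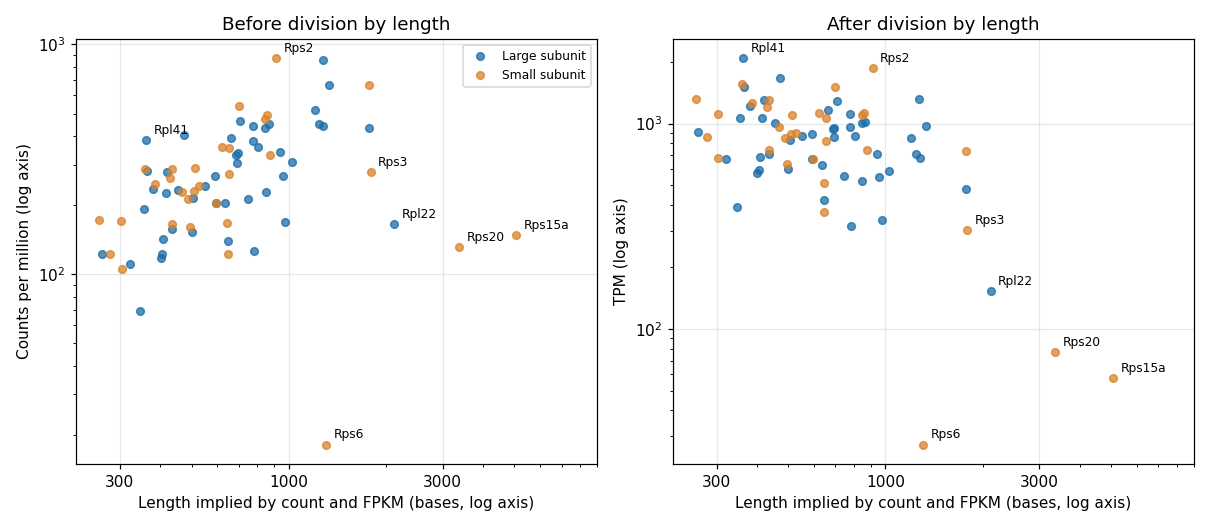
Mean level of each canonical gene over 3 hearts against the length implied by its count and FPKM, as CPM (left) and as TPM (right), all axes logarithmic. Rps15a, Rps20 and Rpl22 lie among the other genes in CPM and at the lower right in TPM, and Rps6 is low in both.

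Rps6 was low in counts as well, with 272, 361 and 371. A separate line of the table, LOC105244208, is annotated as 40S ribosomal protein S6 with the same KEGG number, at chr2:75191038-75191850 on the minus strand of GRCm38.p6. It had 8529, 8364 and 8882 counts, or 1303, 1236 and 1253 TPM. Rps6 itself, at chr4:86854099-86857367 on the minus strand, thus held 3.10%, 4.14% and 4.01% of the counts of these 2 lines. In GENCODE M21 the place of LOC105244208 holds the processed pseudogene Rps6-ps4, a copy of 750 bases without introns. The coding sequence of Rps6, 747 bases, was identical to that copy over its whole length, with 0 differing bases. The first 60 coding bases show what a read from either place would hold, with no difference to tell them apart.
Rps6: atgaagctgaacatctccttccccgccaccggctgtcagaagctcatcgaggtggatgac
Rps6-ps4: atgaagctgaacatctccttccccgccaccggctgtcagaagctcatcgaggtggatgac
Reads from within this coding sequence therefore cannot be assigned to either place by sequence, and the level of Rps6 is uncertain. Summed, both lines gave 1326, 1265 and 1282 TPM, a mean of 1291 ± 31.2 (SD, n = 3). With lines of the same protein summed for every canonical gene, Rps6 would be 12th of the 77 in place of last.

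Rpl23, a large subunit protein that also binds MDM2, had 398, 309 and 309 TPM and was 71st of 77. Lines LOC100044627 and LOC100862455, both annotated as 60S ribosomal protein L23 and placed on sequences outside the chromosomes, had identical values of 443, 479 and 531 TPM each. The sum of all 3 lines was 1284, 1267 and 1371 TPM, or 9th of 77. Rpl23 alone was highest in heart 1 and the additional lines were highest in heart 3. These sums, like the coding lengths, were chosen after the values had been seen. Over all canonical genes, summing lines of the same protein lowered the SD of log2 TPM from 1.02 to 0.86. Using CPM per coding length as well, it was 0.58.

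**Figure D3:**
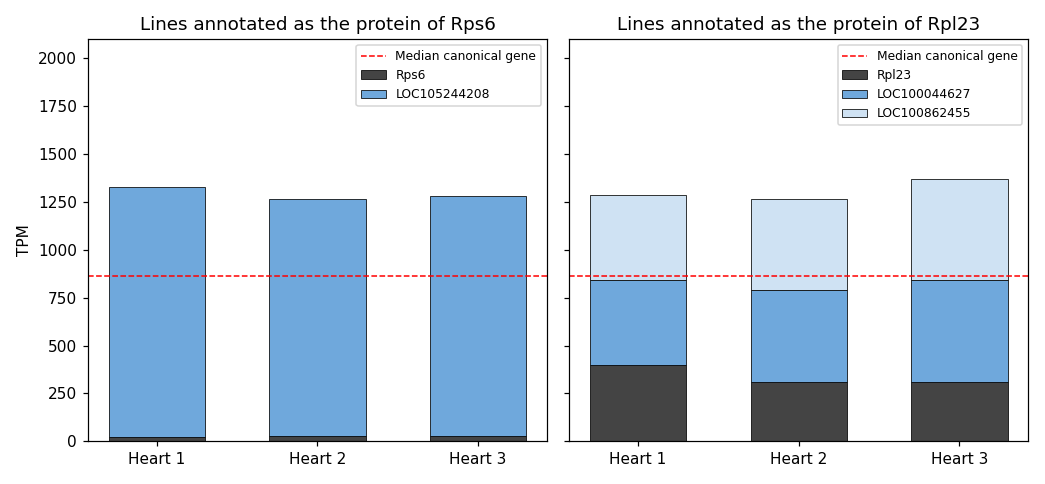
TPM in each heart of the table lines annotated as the protein of Rps6 (left) and Rpl23 (right), stacked, with the median of the canonical genes at 862 TPM as a dashed line. Rps6 is a thin band under LOC105244208, and both sums lie between 1265 and 1371 TPM in every heart.

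A count can be fractional where reads that match several genes are divided between them, although the sources do not describe this step. A count over 0.005 from a whole number in some heart was found for 22 of 87 members, 18 of them canonical, or 25.3%. Over all genes 15.5% (2803) had such counts. The other 4 members were Rpl7l1, Rpl37rt, Rpl31-ps12 and Rpl34-ps1. Rpl22, Rps15a and Rps20 had whole counts in every heart. Levels of members with fractional counts may depend on how such reads were divided.

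The paralogs were compared with their parents per gene length, within each heart. All 6 pairs that could be tested had the paralog below the parent, with log2 ratios from -0.58 to -5.43. A low level against a ribosomal protein gene is the rule in this tissue, since 92.4% to 99.2% of all genes tested fell below these parents in the same edgeR quasi-likelihood test, so the sizes and not the calls carry the information.

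Rpl3l encodes a muscle form of RPL3, a protein that shapes the peptidyl transferase centre. Its coding sequence was 74.8% identical to that of Rpl3 over 1202 aligned bases. Rpl3 had 701, 659 and 683 TPM, and Rpl3l had 26.6, 28.4 and 38.4 TPM, highest in heart 3 and far from overlapping its parent. The log2 ratio was -4.47 (SE 0.15, 95% interval -4.82 to -4.11, adjusted p = 2.864e-08, edgeR quasi-likelihood), lower in 3 of 3 hearts, where 98.0% of all genes were below Rpl3. Without heart 1 the ratio was -4.32. Rpl3l made up 4.37% of the summed TPM of the pair.

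Rpl22l1 is the paralog of Rpl22, 75.8% identical in coding sequence. Rpl22 had 154, 153 and 152 TPM and Rpl22l1 had 62.4, 68.0 and 63.1 TPM. The ranges did not overlap. The log2 ratio was -1.25 (SE 0.08, 95% interval -1.43 to -1.06, adjusted p = 2.281e-06, edgeR quasi-likelihood), with 92.4% of all genes below Rpl22. This ratio rests on the length of Rpl22: with coding lengths it was -3.47, and with no length correction -3.54. In counts Rpl22l1 had 241, 272 and 273 and Rpl22 had 2959, 3026 and 3131.

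Rpl36al, 87.7% identical to Rpl36a, was the closest to its parent. Rpl36a had 595, 572 and 561 TPM and Rpl36al had 377, 392 and 389 TPM, without overlap. The log2 ratio was -0.58 (SE 0.06, 95% interval -0.72 to -0.44, adjusted p = 5.512e-05, edgeR quasi-likelihood), with 97.7% of all genes below Rpl36a. Rpl36al held 40.1% of the summed TPM of the pair. Both genes had whole counts. The parent lies on chromosome X and the paralog on chromosome 12.

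Rps27l, a homologue of Rps27 known as a p53 target, was 76.2% identical over 252 aligned bases. Rps27 had 1451, 1259 and 1235 TPM and Rps27l had 197, 220 and 224 TPM. The parent was highest in heart 1, where the paralog was lowest. The log2 ratio was -2.62 (SE 0.11, 95% interval -2.87 to -2.37, adjusted p = 3.356e-08, edgeR quasi-likelihood), with 99.2% of all genes below Rps27. It was -2.50 without heart 1, -2.20 with coding lengths and -1.88 with no length correction.

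Rpl7l1, whose protein is related to RPL7 and was 66.9% identical in coding sequence, had 39.5, 45.0 and 46.2 TPM against 1001, 1023 and 997 TPM for Rpl7. The log2 ratio was -4.53 (SE 0.07, 95% interval -4.70 to -4.36, adjusted p = 3.387e-09, edgeR quasi-likelihood), with 98.8% of all genes below Rpl7. With coding lengths it was -2.82. Rpl7l1 had an implied length of 2522 bases for a coding sequence of 738.

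Rpl37rt, a retrotransposed copy of Rpl37, was near the limit of detection in counts, with 52.5, 24.9 and 46.9. Its level was 9.89, 4.52 and 8.14 TPM, against 334, 301 and 316 TPM for Rpl37. The log2 ratio was -5.43 (SE 0.25, 95% interval -6.00 to -4.85, adjusted p = 6.637e-09, edgeR quasi-likelihood), with 96.1% of all genes below Rpl37. It was -5.61 without heart 1. Both genes had fractional counts, so reads of the parent could be counted for the copy and the value is uncertain.

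Rpl39l, the paralog of the tunnel protein Rpl39 with 85.0% identical coding sequence, had 1, 2 and 3 counts and was not detected. Rpl39 had 1187, 1282 and 1356 counts. Rpl39l thus held 6 of 3831 counts of the pair, 0.157% (95% exact Clopper-Pearson interval 0.0575% to 0.341%). This interval covers counting error only. The testis germ cell markers in the table, Ddx4 and Prm1, had 10 to 16 and 0 to 1 counts per heart.

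Rpl31-ps12 and Rpl34-ps1 were not detected either, with 6.00 to 9.26 and 2.37 to 2.51 counts. Rps19bp1, which encodes a regulator of the deacetylase SIRT1, had 26.7, 22.2 and 24.8 TPM.

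**Figure D4:**
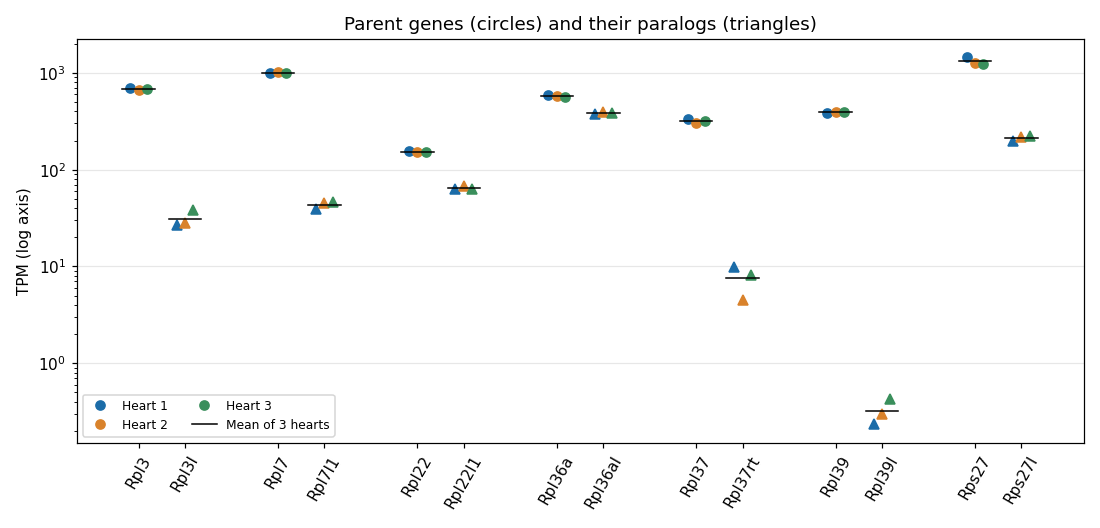
TPM (log axis) in hearts 1 to 3 of 7 parent genes (circles) and their paralogs (triangles), with the mean of the 3 hearts as a bar. Every paralog lies below its parent, closest for Rpl36al and furthest for Rpl39l, which had 1 to 3 counts per heart.

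Variation between the hearts was tested by edgeR's goodness of fit, which asks whether a gene departs from its mean by more than genes of like abundance. Of 84 members tested, 0 passed at an adjusted p under 0.05, against 1.84% of all genes (251 of 13653). None of the 84 had an unadjusted p under 0.05, against 772 of the 13653 genes tested. With the dispersion trend of DESeq2 the counts of members were likewise 0 and 0, against 197 (1.44%) and 692 of the 13653 genes. The median coefficient of variation was 5.39% over canonical genes and 8.80% over all genes tested. Among 2896 other genes between 69.3 and 870 CPM it was 6.60%, and 1.59% of them passed the test. That range holds all canonical genes except Rps6, and levels were not matched within it. The coefficient was under 10% for 73 of the 77 canonical genes and was highest for Rps6. With 3 hearts, modest differences could have gone undetected.

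Rpl3l was the member nearest the threshold. Its normalised level was 16.4, 18.5 and 25.9 CPM, the highest 1.58 times the lowest (unadjusted p = 0.05235, adjusted p = 0.9082, edgeR goodness of fit). Ckmt2, the mitochondrial creatine kinase of striated muscle, passed the test (adjusted p = 0.0001618, edgeR goodness of fit) and was also lowest in heart 1 and highest in heart 3, at 512, 983 and 1091 TPM. It was taken from the list of skeletal muscle markers, of which 4 are in the table and 1 was detected. The others had few counts and other orders: Mylpf 15, 9 and 19, Actn3 19, 17 and 5 and Myh1 1.01, 1 and 1 in hearts 1 to 3. The 6 cardiomyocyte markers, all detected, summed to 32589, 30774 and 30526 TPM, and their median log2 deviation was -0.06, 0.08 and -0.0038 in hearts 1 to 3. Nppa, the atrial natriuretic peptide, had 3292, 4328 and 4355 TPM and Actn2, the sarcomeric alpha-actinin, 1700, 1889 and 1901 TPM, both lowest in heart 1 and highest in heart 3. Tnnt2 and Myh6, which make up most of the sum, were highest in heart 1, at 14698 and 12609 TPM. Ryr2 had 205, 214 and 150 TPM and Ttn 84.4, 109 and 90.7 TPM in hearts 1 to 3, both highest in heart 2. The part of these markers in the level of Rpl3l was not tested.

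Small shifts were shared by many canonical genes. Relative to the mean of the 3 hearts, their median log2 deviation was 0.01, -0.06 and 0.05 in hearts 1 to 3 after TMM normalisation. Heart 2 was the lowest for 53 of 77 genes (68.8%), where it was the lowest for 29.4% of all genes. Heart 3 was the highest for 52 of 77 (67.5%), against 33.2% of all genes. The 3 erythroid markers were highest in heart 2, summing to 48.0, 71.5 and 35.5 TPM, and 1 of them, Alas2, passed the test of variation (adjusted p = 0.04634, edgeR goodness of fit). Their part in the shift of the canonical genes was not tested. The low position of heart 2 was also found with DESeq2-type median-of-ratios factors (53 genes), CPM (60) and TPM (40). Counted by genes, the high position of heart 3 was not kept under every scaling: by CPM heart 1 was the highest for 42 genes and by TPM for 48. The median over all genes also moved with the scaling. The canonical median minus that of all genes was 0.012, -0.059 and 0.046 by CPM in hearts 1 to 3. By TPM it was 0.019, -0.058 and 0.038, and by median of ratios 0.012, -0.059 and 0.046. Relative to all genes, heart 3 was thus the highest under each of these scalings. None of these genes passed the test singly, and genes of the same libraries are not independent.

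**Figure D5:**
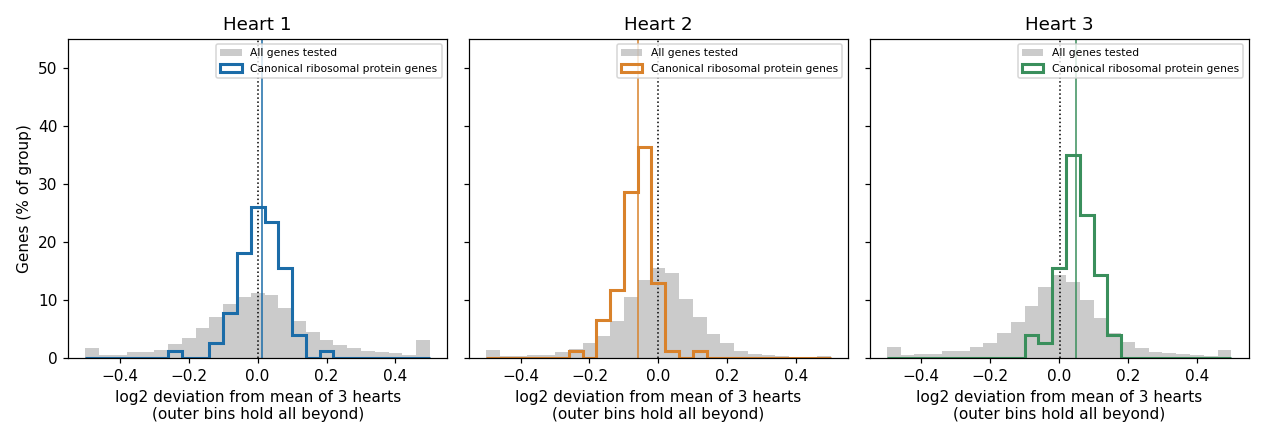
Share of genes (% of group) by log2 deviation from the mean of the 3 hearts after TMM normalisation, for all genes tested (grey) and the 77 canonical ribosomal protein genes (coloured line), with medians as dotted and solid lines. The canonical genes are narrowly spread, with medians of 0.01, -0.06 and 0.05 in hearts 1, 2 and 3.

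Genes that act on or with ribosomal proteins were read in the same test. Of 44 genes of ribosome assembly, 15 of RNA polymerase I, 36 translation factors and 11 ribosome-associated genes, 0 passed the edgeR goodness of fit test (adjusted p under 0.05), read against the 1.84% of all genes. Fau encodes RPS30 as a fusion with a ubiquitin-like protein, and its product belongs to the ribosome although its symbol falls outside the rule. Fau had 738 TPM ± 45.5 (SD, n = 3), within the range of the canonical genes. Tpt1, whose messenger RNA starts with a pyrimidine tract, had 3824 TPM ± 86.2, and Naca, of the nascent chain complex, 660 TPM ± 16.7.

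Among translation factors the elongation factors led, with Eef1a1, which brings aminoacyl-tRNA, at 5235 TPM ± 463 and Eef2, the translocase, at 1322 TPM ± 110 (SD, n = 3). Eif1, which guards start codon choice, had 685 TPM ± 17.5 and Eif5a 660 TPM ± 15.2. Eef1a1 was thus above every ribosomal protein gene. Assembly genes were lower: Npm1 had 356 TPM ± 13.6, Nop10 142 ± 15.5, Ncl 124 ± 0.952 and Fbl 69.1 ± 2.76 TPM (SD, n = 3). Of the genes of RNA polymerase I, which transcribes ribosomal RNA, Polr1d had 124 TPM ± 5.93, Ubtf 71.1 ± 3.84, Rrn3 45.2 ± 3.55 and Znrd1 39.4 ± 3.85 TPM.

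Of 24 genes that control pyrimidine-tract messenger RNAs or ribosome production, 1 passed the test, read against the 1.84% of all genes. Mycn, a transcription factor that drives ribosome production, had 5.96, 11.8 and 17.6 TPM, lowest in heart 1 and highest in heart 3 (adjusted p = 0.0001618, edgeR goodness of fit). After TMM normalisation the canonical genes had their lowest median in heart 2 and their highest in heart 3, and a relation to Mycn was not tested. Akt1 had 349 TPM ± 20.3, Cnbp 337 ± 9.84, Eif4ebp1 273 ± 15.01 and Rheb 129 ± 7.26 TPM (SD, n = 3), and did not pass.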

How the data were processed

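Total RNA of 3 hearts was sequenced from DNBSEQ libraries, per the labels. The deposited table holds, per the file headers, a read count and an FPKM value per gene and heart. Counts were partly fractional and were taken to be expected counts made by the authors, and were rounded for count tests. The submitters' processing notes name HISAT and GRCm38.p6. How reads were counted and FPKM computed, and whether strand was used, is not given in the sources used here, so a gene and its antisense partner may share reads. The authors' 2 columns of means were not used, and 1 line without values was left out.

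FPKM was rescaled to TPM. Variation between hearts was tested with edgeR 4.0.16 (R 4.3.3) after TMM normalisation, on genes at 1 CPM or more in at least 1 heart, as deviance at the trended dispersion. DESeq2 1.42.0 served as an alternative. Paralogs were tested against parents by edgeR's quasi-likelihood test, with the 2 genes in 3 hearts as 6 columns, heart as block and log length as offset. The same contrast was fitted for every gene, and p-values were Benjamini-Hochberg adjusted over all 13652 or 13653 genes. Both tests were first run on simulated counts with known changes.

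Named are all paralogs and parents, the 5 highest and 5 lowest canonical genes, the stalk genes and Rpsa, and from each other list the 4 highest genes and those that passed, except for 1 gene that is not reported here. Rpl23, Rpl28, the lines of the same protein, the promoter windows, the motifs and the run length were chosen after values or sequences had been seen. Members and lists were chosen with earlier results of these data known. Detection meant 1 CPM in every heart, and the 3 counts that a count of 0 allows correspond to 0.160 to 0.169 CPM. Coding lengths come from GENCODE M21 transcripts matched to RefSeq (84 of 87 members). Figures were drawn with matplotlib 3.10.9.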

Additional observations from a re-analysis of the deposited data

How the results depend on the processing

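The count of variable members was 0 under every alternative run, where 0.851% to 1.84% of all genes tested passed. These runs were other size factors, the DESeq2 dispersion trend, no filter, a filter in every heart, and each heart left out. At an unadjusted p under 0.05 there were 0 to 2 members of the 84 tested, or of the 87 with no filter. Over all genes the counts ran from 607 of 13566 without heart 3 to 997 of 17404 with no filter. The 2 members were found without heart 1, against 623 of 13394 genes. Over all genes the count of variable genes fell from 251 to 114 without heart 1, 150 without heart 2 and 120 without heart 3, with fewer samples in each test. All paralog pairs kept their direction and call wherever they could be fitted, which was 6 of 6, or 5 of 5 with transcript or coding lengths, which Rpl37rt lacks. With the heart block the size factors cancel. Without the replicate block the calls were also 6 of 6, and the log2 ratio of Rpl3l was -4.45. The ratio of large to small subunit medians changed sign with CPM, to 0.14. The member share of TPM was 2.24% as CPM, 5.52% with whole-count members only and 6.98% with lines of the same protein added, and the median canonical level was 247 CPM. The SD of log2 levels was 0.86 with CPM, 0.94 with whole-count members, 0.78 with coding length, 0.86 with lines of the same protein summed, 0.58 with both, and 0.65 without Rps6, Rps15a and Rps20, the last 4 being chosen after seeing the data. CPM differs by its construction, having no division by length; other causes were not tested.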
